A study of Mus musculus with 9 samples.

Results

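Lungs of mice with ovalbumin-induced asthma that had also been given fine particles through the nose were compared, gene by gene, with lungs of asthmatic mice that had not. The comparison took in 6 of the 9 mRNA libraries of the study, namely the 3 labelled OVA+PM2.5 and the 3 labelled OVA, chosen by the labels alone. The 3 Naive libraries gave a background level, counted toward the floor on low values and shared in the estimate of spread in the 9-library fits. All animals were male BALB/c mice, 6 weeks old on arrival. The OVA mice were sensitised with 50 μg of ovalbumin (OVA, an egg-white protein used as an experimental allergen) and 1 mg of aluminium hydroxide given into the abdomen on days 0, 7 and 14, then challenged each day with 400 μg of ovalbumin through the nose from day 21 to day 27. The OVA+PM2.5 mice went through the same protocol and in addition had a suspension of PM2.5 (airborne particles up to 2.5 μm across) dripped into the nose daily, beginning 7 days before the first injection and stopping on the day before the end. Naive mice received saline, and all lungs were taken on day 28. The dose of particles, and whether the OVA mice were given particle-free drops over the same days, are not given in the labels. The labels also do not say whether a library is 1 mouse or a pool, so p-values measure only the spread between these libraries.

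The series title places 2 genes at the centre of the study. Esrrg encodes estrogen-related receptor gamma, an orphan nuclear receptor that works with the coactivator PGC-1α (gene Ppargc1a) to drive genes of mitochondrial respiration, and that is abundant in heart, slow muscle and brown fat. Pde3b encodes a phosphodiesterase that breaks down cyclic AMP, the second messenger through which β-adrenergic drugs relax airway muscle, and it is best known from fat and liver cells. Allergic airway disease brings eosinophils and neutrophils into the lung and turns airway epithelium toward mucus production. Inhaled particles are known to engage oxidant-sensing (NRF2) and xenobiotic-sensing (aryl hydrocarbon receptor) programmes in the airway lining.

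The deposited values were FPKM (fragments counted on a gene, divided by its length and by the depth of the library), and 12982 of 21884 genes passed a floor of 0.5 FPKM in at least 3 of the 9 libraries. The libraries held 12142765 to 15748051 fragments, as recovered from the steps between the FPKM values. The 3 OVA libraries resembled each other, with pairwise correlations over genes of 0.926 to 0.957, whereas the 3 OVA+PM2.5 libraries correlated with each other at 0.757 to 0.815. The OVA+PM2.5 replicates also lay at unequal distances from the OVA libraries, at 0.638 to 0.69 for replicate 1, 0.881 to 0.932 for replicate 2 and 0.751 to 0.777 for replicate 3. These correlations are over genes, which are not independent replicates, and describe the libraries only.

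Transcripts of tissues other than lung parenchyma stood high in the OVA+PM2.5 libraries, and the leading tissue differed between them. Skeletal muscle genes made up 4.53, 0.0267 and 0.0844 percent of the fragments of OVA+PM2.5 replicates 1, 2 and 3, against 0.00118 to 0.0029 percent in the OVA libraries. In replicate 1, 14 of the 15 genes on that list passed a mark. The mark was at least 5 FPKM and over 10 times the highest of the 6 Naive and OVA libraries. The other gene, Tnnc2, was listed at 0 in all 9 libraries. The fast myosin genes Myh1, Myh2 and Myh4 were at 0 in replicate 2. Atrial and cardiac muscle genes made up 0.16, 1.82 and 0.0774 percent against 0.0189 to 0.119 percent in OVA and 0.0122 to 0.0999 percent in Naive libraries. Replicate 3 lay within both ranges. In replicate 2, 12 of 16 were past that mark, and Myl7, Nppa, Nppb and Tnni3 were at 0 in replicate 1. Brown fat genes made up 0.022, 0.0399 and 0.395 percent against 0.0101 to 0.012 percent, with 6 of 10 past the mark in replicate 3. The defining brown fat genes Ucp1 and Elovl3 were at 0 in all 3 OVA libraries, and Elovl3 was also at 0 in replicate 2. White and general fat genes made up 0.662, 0.106 and 1.76 percent against 0.0186 to 0.0595 percent in OVA and 0.0174 to 0.104 percent in Naive libraries. Replicate 2 was thus barely above the highest Naive library. Genes of the stratified epithelium of oesophagus or skin made up 0.103, 0.000363 and 0.00173 percent against 0.000146 to 0.000378 percent in OVA and 0.000305 to 0.00615 percent in Naive libraries, with 3 of 10 past the mark in replicate 1. Replicate 1 was thus the library with the most skeletal muscle and stratified epithelium RNA, replicate 2 the one with the most atrial RNA and replicate 3 the one with the most fat RNA.

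**Figure D1:**
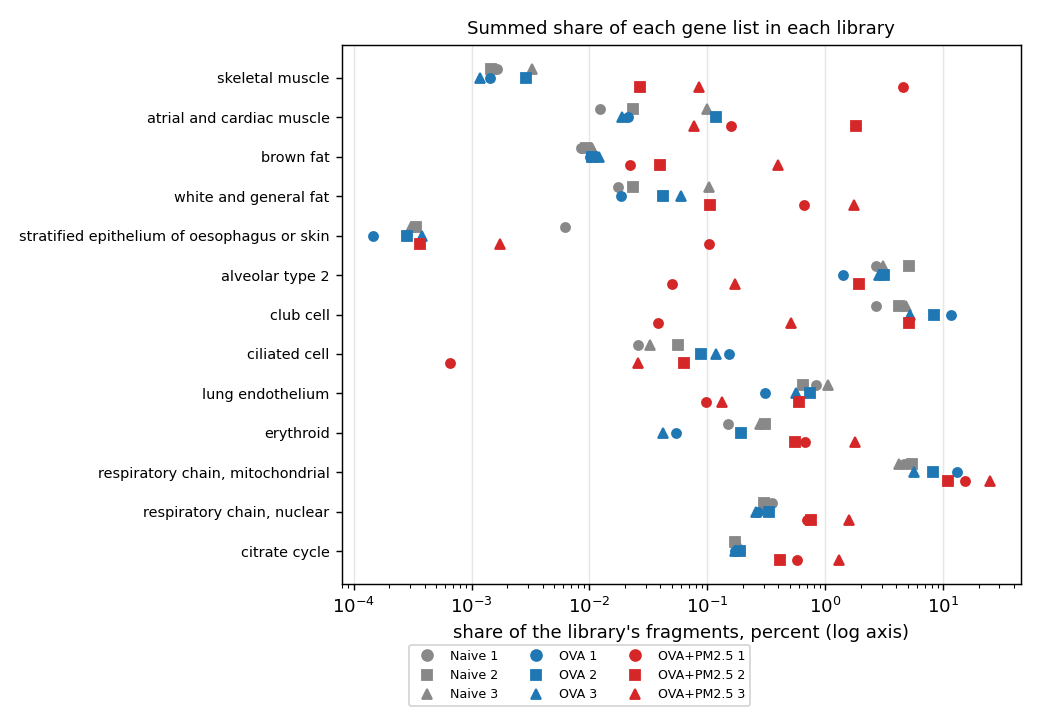
Share of each library's fragments (percent, log axis) taken by the summed genes of 13 lists, with Naive libraries in grey, OVA in blue and OVA+PM2.5 in red, and marker shapes for replicates 1, 2 and 3. Skeletal muscle genes reached 4.53 percent in OVA+PM2.5 replicate 1, atrial genes 1.82 percent in replicate 2 and white fat genes 1.76 percent in replicate 3, while club cell genes stood at 0.0379 percent in replicate 1.

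Lung cell transcripts ran the other way. Genes of alveolar type 2 cells, which make surfactant, took 0.0499, 1.92 and 0.172 percent of fragments in the 3 OVA+PM2.5 libraries against 1.41 to 3.17 percent in OVA. Genes of club cells, the secretory cells of small airways, took 0.0379, 5.13 and 0.509 percent against 5.24 to 11.7 percent. Genes of the lung endothelium took 0.0981, 0.597 and 0.132 percent against 0.306 to 0.743 percent. Replicate 2 sat inside the OVA range for alveolar type 2 and endothelial genes and just below it for club cell genes, and replicates 1 and 3 sat far below the OVA range in all 3. The label of lung tissue therefore held for replicate 2 by its markers, whereas in replicate 1 the surfactant gene Sftpb was at 8.45 FPKM, and in replicate 3 at 35.8 FPKM, against 806 to 1163 FPKM in OVA. In bulk tissue, fewer cells of a type and less RNA per cell cannot be told apart, and this applies to every value that follows.

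Across genes, limma on the 6 libraries called 0 of 12982 genes at an adjusted p under 0.05 (0 percent, lowest adjusted p = 0.239), and 2393 (18.4 percent) at an unadjusted p under 0.05, 635 of them higher and 1758 lower after particles. A fit of all 9 libraries with 1 shared spread called 28 genes (0.216 percent), 25 higher and 3 lower. With 1 spread per group, which gave the OVA+PM2.5 libraries a weight of 0.347 against 1.338 for OVA and 2.154 for Naive, it called 7 (0.0539 percent), all higher: Mfn2, Gmpr, Perm1, Slc2a4, Idh3a, Pdha1 and Lrrc39. The 3 lower calls were not among them. Lrrc39 passed the floor through the OVA+PM2.5 libraries alone, and the 3 lower calls through the OVA libraries alone. The count followed the libraries: without OVA+PM2.5 replicate 2 the 6-library fit called 1692 genes, without replicate 3 it called 29, and without replicate 1 or any 1 OVA library it called 0. Since no gene passed in the main test, genes are described below by their values in each library, as higher or lower, and not as changed. The smallest p that an exact permutation of 3 libraries against 3 can give is 0.1.

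Differences are on the log2(FPKM + 0.5) scale, which understates those of low genes, and are given as OVA+PM2.5 minus OVA with the standard error of the 6-library fit. The median difference over all genes was −0.23, against which the values below are to be read, and −0.32, −0.09 and −0.32 in replicates 1, 2 and 3 taken singly. All 3 OVA+PM2.5 libraries lay above all 3 OVA libraries for 891 genes (6.86 percent) and below them for 2604 genes (20.1 percent). At least 1 log2 unit separated the groups for 99 higher genes (0.763 percent) and 18 lower genes (0.139 percent). A further condition kept genes whose OVA+PM2.5 libraries lay within 1 log2 unit of each other and whose mean in the higher group was at least 1 FPKM. It left 17 higher genes (0.131 percent) and 3 lower genes (0.0231 percent), called steady here. These counts describe the 6 libraries, carry no test and depend on each library. Without OVA+PM2.5 replicates 1, 2 or 3 in turn, the steady genes numbered 72, 115 and 124 higher and 7, 737 and 7 lower, and without OVA replicates 1, 2 or 3 they numbered 22, 26 and 18 higher and 22, 12 and 7 lower. The 99 and 18 wider-gap genes became 259 and 1038 without OVA+PM2.5 replicate 2, 227 higher without replicate 3, 162 higher without OVA replicate 2, and 71, 59 and 33 lower without OVA replicates 1, 2 and 3. Leaving a library out can only widen the gap between groups or narrow the spread. Each of the 17 and 3 steady genes remained in all 6 of these settings, which, apart from the floor on the mean, follows from the rule and shows no stability.

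Of the 17 steady higher genes, 8 encode proteins of mitochondria. The share of all genes past the floor that encode such proteins was not counted, so the 8 have no background figure beside them. Atp5a1 and Atp5b encode the α subunit and the catalytic β subunit of ATP synthase, and Atp5c1 the γ subunit that turns within them. Atp5b stood at 209, 207 and 364 FPKM in OVA+PM2.5 replicates 1, 2 and 3 and at 50.6, 64.7 and 58 FPKM in OVA. Atp5a1 stood at 209, 200.3 and 316 FPKM against 65.7, 79.9 and 66.2 FPKM. Atp5c1 stood at 42.6, 50.5 and 45.1 FPKM against 13, 18.6 and 15.1 FPKM. For all 3 subunits the groups were far apart, the OVA and Naive ranges overlapped (Naive 53.9 to 69.2 FPKM for Atp5b), and replicate 3 was highest for Atp5b and Atp5a1 and replicate 2 for Atp5c1. Skeletal muscle, heart and brown fat are all rich in ATP synthase, and the part of the muscle and fat RNA in these values was not tested. Their differences were 2.11 ± 0.35, 1.74 ± 0.32 and 1.55 ± 0.26 log2 units, each with an adjusted p of 0.239 in limma on 6 libraries, and with 0.0329, 0.0425 and 0.0329 in the 9-library fit with a shared spread. With 1 spread per group the adjusted p were 0.0738, 0.0782 and 0.0844, so these calls were lost.

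Mfn2 encodes mitofusin 2, a membrane GTPase that fuses mitochondria. It stood at 30.2, 27.3 and 18.2 FPKM after particles and 3.85, 4.79 and 4.69 FPKM without, a difference of 2.35 ± 0.28 log2 units and the widest gap among the steady genes. Mdh2, the malate dehydrogenase of the citrate cycle, stood at 46.4, 49.2 and 82.9 FPKM against 12.5, 19 and 17.4 FPKM. Ndufa9, a subunit of complex I, stood at 26, 22.5 and 43.4 FPKM against 8.35, 10.1 and 9.83 FPKM. Mdh2 and Ndufa9 were highest in replicate 3 and Mfn2 lowest there. Chchd3, which shapes the folds of the inner membrane, and Mrpl42, a protein of the mitochondrial ribosome, stood at 21.7, 14.7 and 24.5 FPKM against 6.04, 6.72 and 5.81 FPKM and at 14, 12.5 and 15.3 FPKM against 4.42, 4.57 and 3.44 FPKM. Mrpl42 was close to even over the 3 libraries.

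The other steady higher genes came from glycolysis, signalling and nucleotide metabolism. Vegfb, a growth factor of the VEGF family linked to fatty acid uptake by endothelium, stood at 29.1, 44.9 and 42 FPKM against 11.8, 8.57 and 7.64 FPKM. Vegfb was highest in replicate 2, the library closest to the OVA libraries and also the one with the most atrial RNA. Nol3, an inhibitor of apoptosis abundant in muscle, stood at 11.5, 9.23 and 10.3 FPKM against 2.76, 3.5 and 2.19 FPKM, with Naive libraries in between at 7.21, 5.47 and 6.25 FPKM. Gmpr, a GMP reductase, stood at 14.8, 14.3 and 17.4 FPKM against 3.11, 4.02 and 3 FPKM. Tpi1, the triosephosphate isomerase of glycolysis, stood at 74.2, 37 and 43.1 FPKM against 17.8, 17.7 and 15.4 FPKM. Ptgr2, a reductase of prostaglandin metabolites, stood at 2.33, 2.61 and 4.34 FPKM against 0.793, 0.824 and 0.804 FPKM. Rxrg (retinoid X receptor gamma) and Yjefn3 were low in all libraries, at 1.22 to 2.61 and 2.23 to 2.4 FPKM after particles against 0.0278 to 0.257 and 0.0401 to 0.608 FPKM without. Rxrg passed the floor through the OVA+PM2.5 libraries alone, and Yjefn3 would not have passed without them.

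All 17 steady higher genes lay above every Naive library too, and in 13 of them the OVA and Naive ranges overlapped. Where those ranges overlap, the gap asked of OVA favours a place above Naive as well. The share of all genes was not counted for either number, so both describe these genes only. Of the 17, 11 were highest in replicate 3, 4 in replicate 1 and 2 in replicate 2. Just inside the gap of 1 log2 unit lay Tpi1 at 1.03, Chchd3 at 1.07 and Ppargc1a at 1.08, and just outside lay Apoo at 0.956, Timm23 at 0.94 and Cdc34 at 0.888. Many of the 17 are genes that muscle, heart and brown fat express at high levels. The skeletal muscle, brown fat and white fat shares given above were higher in all 3 OVA+PM2.5 libraries than in any OVA library, and the atrial share was higher in replicates 1 and 2. The part of those tissues in the steady genes was not tested. Evenness over the OVA+PM2.5 libraries was a condition of the choice and bears on nothing further.

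**Figure D2:**
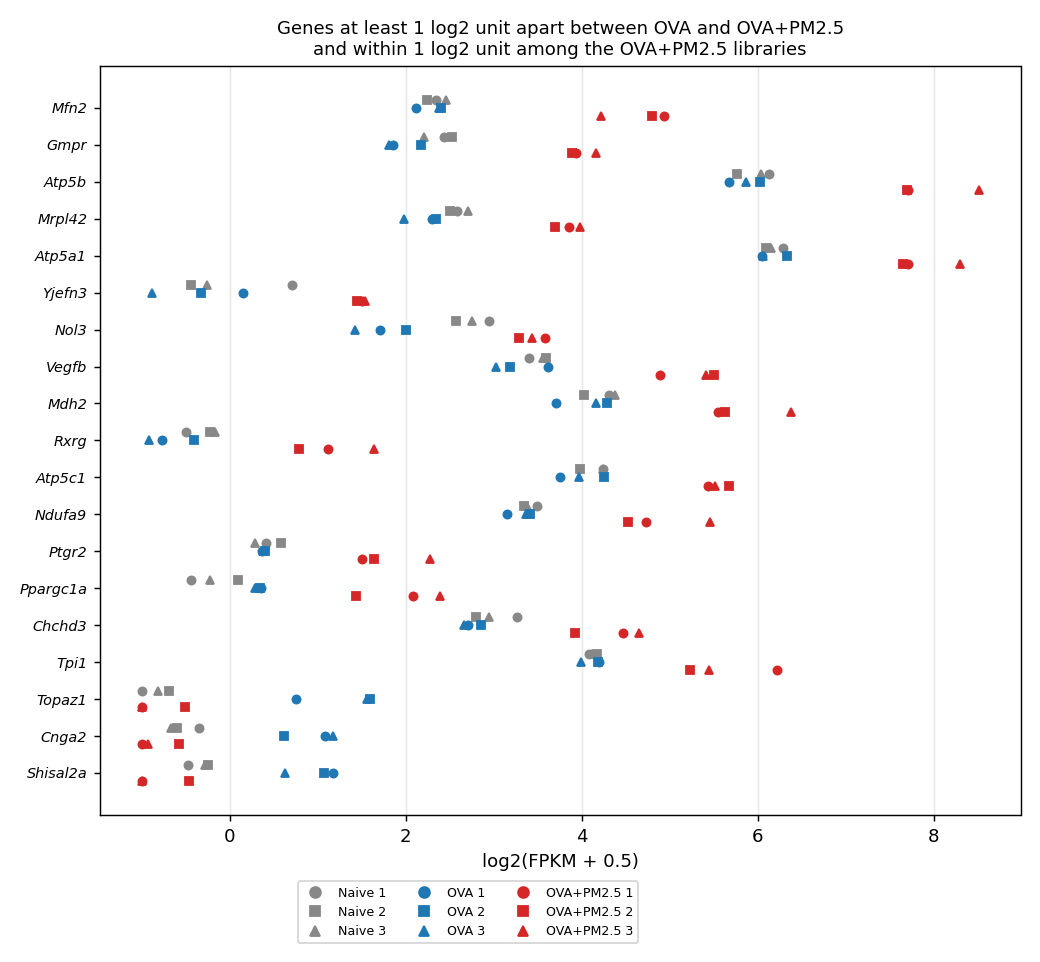
Level of 16 of the 17 steady higher genes and of the 3 steady lower genes in each of the 9 libraries, as log2(FPKM + 0.5), with Naive in grey, OVA in blue and OVA+PM2.5 in red. For the 16 upper genes the red markers lie to the right of all grey and blue ones, and for Topaz1, Cnga2 and Shisal2a the blue markers stand apart on the right.

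The receptor named in the title was higher in all 3 libraries after particles, at low levels. Esrrg stood at 1.93, 1 and 0.88 FPKM in OVA+PM2.5 replicates 1, 2 and 3, 0.338, 0.348 and 0.468 FPKM in OVA and 0.126, 0.203 and 0.193 FPKM in Naive libraries. The groups did not overlap, and the OVA libraries also lay above the Naive ones. Esrrg passed the floor of 0.5 FPKM through the OVA+PM2.5 libraries alone, the group where it was high. The difference was 0.96 ± 0.27 log2 units (limma on 6 libraries, adjusted p = 0.239, unadjusted p = 0.00982), and replicate 1, the library richest in skeletal muscle RNA, was the highest. The means were 1.27 ± 0.572 FPKM after particles and 0.384 ± 0.0725 FPKM without (SD, n = 3).

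Partners of the receptor were higher as well. Ppargc1a, the coactivator that promotes the making of mitochondria, stood at 3.72, 2.2 and 4.73 FPKM against 0.777, 0.774 and 0.724 FPKM in OVA, one of the steady genes and also a member of the brown fat list. Perm1, a regulator induced by PGC-1 and the estrogen-related receptors in muscle, stood at 46.2, 14.9 and 13.5 FPKM against 0.623, 1.32 and 0.634 FPKM, a difference of 4.03 ± 0.50 log2 units (adjusted p = 0.239 in limma on 6 libraries, 0.0223 on 9 with a shared spread and 0.0375 on 9 with 1 spread per group). Of the 14 genes on the list of estrogen-related receptors and PGC-1 that passed the floor, 7 were higher in all 3 libraries and 2 lower, against 6.86 and 20.1 percent of all genes. Chosen after their values were seen, Esrra stood at 6.54, 8.91 and 16.4 FPKM against 3.24, 2.67 and 2.45 FPKM, and Pdk4, a brake on pyruvate oxidation and a target of these receptors, at 160.4, 18.1 and 201 FPKM against 2.01, 8.34 and 5.74 FPKM. Esrra was highest in replicate 3 and Pdk4 lowest in replicate 2, yet neither group overlapped with OVA. Tfam, a transcription factor of mitochondrial DNA, overlapped between the groups at 6.15, 6.25 and 8.26 FPKM against 6.61, 7.38 and 5.01 FPKM. Nrf1, a nuclear activator of respiratory chain genes, was one of the 2 lower genes, at 0.65, 0.816 and 0.501 FPKM against 0.835, 0.98 and 0.824 FPKM. Its level was low throughout, and replicate 2 was barely below the lowest OVA library.

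The phosphodiesterase named in the title did not separate the groups. Pde3b stood at 5.07, 1.87 and 24.6 FPKM after particles and 2.68, 3.41 and 4.49 FPKM in OVA, with Naive libraries at 2.75, 2.52 and 3.03 FPKM. Replicate 3, where brown and white fat genes were highest, carried the difference, while replicate 2 lay below all 3 OVA libraries. The difference of 0.81 ± 0.80 log2 units had an adjusted p of 0.589 (limma on 6 libraries) and became −0.12 without replicate 3. Of 14 phosphodiesterase genes past the floor, 2 were higher in all 3 libraries (14.3 percent) and 1 lower (7.14 percent), against 6.86 and 20.1 percent of all genes. Pde4a, of the cyclic AMP-specific family that dominates in immune cells, stood at 1.33, 3.81 and 3.1 FPKM against 1.19, 0.933 and 1.05 FPKM, and Pde7a, of another such family, at 3.05, 3.65 and 3 FPKM against 6.61, 4.83 and 5.35 FPKM. Pde7a was the more even of the pair, with all 3 OVA+PM2.5 libraries also below the Naive range of 4.15 to 4.7 FPKM. Among 18 genes of cyclic AMP signalling, Prkaca, a catalytic subunit of protein kinase A, stood at 38.9, 42 and 68.9 FPKM against 19.4, 20.8 and 22.9 FPKM.

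**Figure D3:**
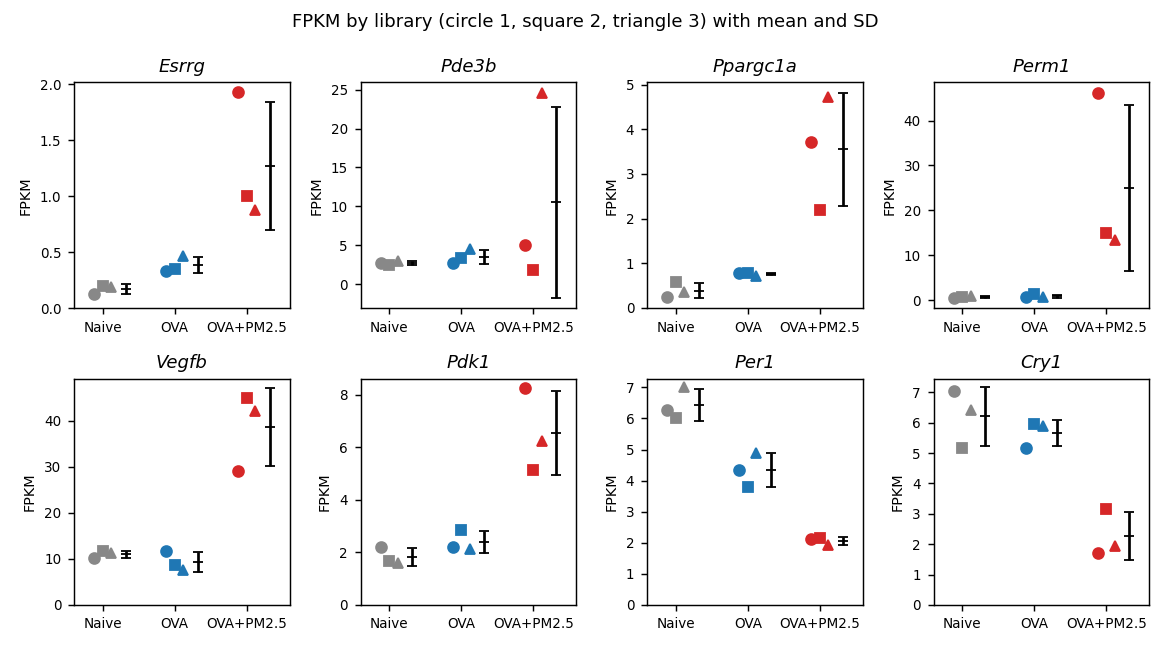
FPKM of 8 genes in every library, with replicate 1 as a circle, 2 as a square and 3 as a triangle, and the mean with its SD (n = 3) in black. Esrrg, Ppargc1a, Perm1, Vegfb and Pdk1 stood higher and Per1 and Cry1 lower in all 3 OVA+PM2.5 libraries, whereas Pde3b was at 24.6 FPKM in replicate 3 and at 1.87 FPKM in replicate 2.

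Because the title concerns a transcription factor, the promoter windows of the steady genes were searched for the estrogen-related receptor element TNAAGGTCA on both strands. Windows reached from 250 bases before to 50 bases after the RefSeq start (build GRCm38.p6), and 14 of the 17 steady higher genes had one. The element occurred in 421 of 32851 promoters (1.28 percent) and in 1 of the 14, that of Tpi1. The stretch around that match is shown because it was the single match among them, on the minus strand at chr6:124814129-124814208, reaching 50 bases before and 30 bases after the start, with the element, read in reverse orientation, in capitals.

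Tpi1: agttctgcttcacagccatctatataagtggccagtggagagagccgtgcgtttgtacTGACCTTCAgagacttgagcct

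The match began 9 bases past the start. The E-box CACGTG, bound by clock and MYC-family factors, occurred in 2349 promoters (7.15 percent) and in that of Chchd3 among the 14. The antioxidant response core TGACNNNGC occurred in 4071 (12.4 percent) and in 3 of the 14, those of Yjefn3, Rxrg and Ndufa9. The heat shock element occurred in 198 (0.603 percent) and in 0 of the 14. Matches were counted on both strands whether or not they overlapped another motif. A match is a description of letters in the window, and other regions were not searched.

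Beyond the steady genes, most members of 3 mitochondrial lists were higher, in libraries whose muscle and fat shares were also higher, and the part of those tissues was not tested. Of 28 nuclear genes of the respiratory chain, 21 (75 percent) were higher in all 3 libraries and 0 lower, against 6.86 and 20.1 percent of all genes. In replicate 2 all 28 lay above every OVA library, as did 2999 of all genes (23.1 percent). Their median differences were 0.93, 1.29 and 2.35 log2 units in replicates 1, 2 and 3. Ndufs1, the largest subunit of complex I, stood at 13.2, 11.3 and 23.9 FPKM against 4.12, 4.48 and 3.82 FPKM. Of 16 citrate cycle genes, 15 (93.8 percent) were higher in all 3 libraries and 0 lower, with medians of 1.55, 1.15 and 2.93 log2 units. Idh3a, a subunit of the NAD-dependent isocitrate dehydrogenase, stood at 34.8, 22.7 and 69.4 FPKM against 5.27, 5.18 and 6.31 FPKM, and Pdha1, of the pyruvate dehydrogenase complex, at 89.3, 43.9 and 149.5 FPKM against 10.1, 13.3 and 12.8 FPKM. In both genes replicate 2 was the lowest of the 3 libraries and still far above OVA. Of 17 fatty acid oxidation genes, 14 (82.4 percent) were higher and 1 (5.88 percent) lower, and Etfdh, which passes electrons from fat oxidation to the respiratory chain, stood at 9.25, 8.25 and 30.7 FPKM against 1.9, 3.28 and 3.23 FPKM.

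Genes encoded by the mitochondrial genome itself did not separate the groups. Of 12 past the floor, 0 were higher and 0 lower in all 3 libraries, against 6.86 and 20.1 percent of all genes. The mitochondrially encoded genes took 15.4, 11 and 24.8 percent of fragments after particles and 5.64 to 13 percent in OVA, where replicate 1 was the highest. The nuclear respiratory chain genes took 0.703, 0.762 and 1.59 percent against 0.259 to 0.332 percent, with no overlap. mt-Co3, a subunit of cytochrome c oxidase, stood at 217, 195 and 589.6 FPKM against 261, 136 and 81.6 FPKM.

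Of the 99 genes at least 1 log2 unit higher, 19 were on the respiratory chain, citrate cycle or fatty acid oxidation lists, 7 on lists of other tissues and 64 on none. Of all 12982 genes past the floor, the nuclear respiratory chain, citrate cycle and fatty acid oxidation lists held 28, 16 and 17. The skeletal muscle, atrial, brown fat and white fat lists held 8, 13, 7 and 11. The lists do not hold every gene of those tissues. By library, 43 were highest in replicate 1, 48 in replicate 3 and 8 in replicate 2. Every Naive library was exceeded in 96, which the choice by a gap from OVA favours, and the share of all genes was not counted. Slc2a4, the insulin-regulated glucose transporter of muscle and fat, was chosen after its values were seen, at 26.6, 11.2 and 26.6 FPKM against 0.861, 1.3 and 0.731 FPKM. Rgs5, a marker of pericytes, stood at 68, 20.5 and 45 FPKM against 2.22, 3.91 and 7.25 FPKM, and Lum, a matrix proteoglycan of fibroblasts, at 85.8, 28.2 and 8.7 FPKM against 1.28, 1.04 and 1.46 FPKM, both likewise chosen afterwards. These 3 genes are not specific to lung, and their tissue of origin in these libraries was not tested.

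Genes of red blood cells were higher as well. Of 9 erythroid genes past the floor, 7 (77.8 percent) were higher in all 3 libraries and 0 lower, against 6.86 and 20.1 percent of all genes, with medians of 2.71, 1.98 and 4.41 log2 units. Alas2, which starts haem synthesis in red cell precursors, stood at 30.8, 15.3 and 71.9 FPKM against 1.52, 5.09 and 1.59 FPKM, with Naive libraries at 2.44, 8.21 and 5.67 FPKM. Hba-a1, an alpha globin, stood at 2593, 1914 and 5337 FPKM against 176, 621 and 144 FPKM, and its near-identical copy Hba-a2 can share reads with it, so their split is uncertain. For Hba-a1 the Naive libraries, at 415, 869.6 and 796 FPKM, overlapped the OVA range, and all 3 OVA+PM2.5 libraries lay above both groups. The amount of blood left in each lung is not given in the labels, and its part was not tested.

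Glycolytic and oxygen-sensing genes were higher in part. Of 14 genes on the hypoxia and glycolysis list, 6 (42.9 percent) were higher in all 3 libraries and 1 lower, against 6.86 and 20.1 percent of all genes, with medians of 1.16, 0.27 and 1.47 log2 units. Pdk1, which slows pyruvate oxidation, stood at 8.28, 5.15 and 6.25 FPKM against 2.21, 2.87 and 2.13 FPKM, and Egln3, an oxygen-sensing prolyl hydroxylase, at 56.4, 10.4 and 11.8 FPKM against 2.71, 2.99 and 2.38 FPKM. Pdk1 was the more even across the 3 libraries. Vegfa, the classical hypoxia target, was not among the 6, at 5.75, 40 and 19.5 FPKM against 29, 36.5 and 39 FPKM, and neither was the glucose transporter Slc2a1, at 5.28, 5.84 and 3.4 FPKM against 6.84, 5.69 and 6.05 FPKM.

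On the lower side, most genes with the widest gaps stood higher in OVA than in Naive libraries, some of them by little. In 17 of the 18 genes at least 1 log2 unit lower, every OVA library lay above every Naive library. Choice by high OVA values favours that order. The share of all genes with it was not counted, so the 17 describe these genes only. All 18 were highest in replicate 2, where 8 lay within the Naive range, 5 below it and 5 above it. Those named here were chosen after their values were seen. Gdpd1, a glycerophosphodiester phosphodiesterase, stood at 5.99, 19.4 and 3.24 FPKM after particles, 47.5, 50.4 and 49.2 FPKM in OVA and 12, 17.2 and 17.8 FPKM in Naive libraries. The OVA libraries were tight, and replicate 2 was close to the Naive libraries.

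Several of the 18 encode proteins of cilia. Ak8, an adenylate kinase of cilia, stood at 0.621, 3.42 and 1.68 FPKM against 9.83, 9.31 and 9.54 FPKM, with Naive libraries at 1.2, 3.53 and 1.32 FPKM. Enkur, a sperm and cilium protein, stood at 0.141, 6.61 and 2.34 FPKM against 18.9, 16.2 and 13.8 FPKM, and Iqub, a component of motile cilia, at 0, 1.68 and 0.338 FPKM against 5.31, 4.04 and 5.55 FPKM. In these 3 the lowest of the 9 libraries was OVA+PM2.5 replicate 1. Agr3, a disulfide isomerase of ciliated airway cells, stood at 0, 5.11 and 3.32 FPKM against 14.7, 11.8 and 11.7 FPKM. Il18r1, the receptor subunit for interleukin 18, stood at 0.547, 5.04 and 2.07 FPKM against 10.6, 12 and 14 FPKM. F3, tissue factor, the starter of blood clotting, stood at 1.94, 10.9 and 10.5 FPKM against 24.1, 22.8 and 22.7 FPKM, with replicates 2 and 3 nearly equal and at the lower edge of the Naive range of 10.8 to 14.4 FPKM.

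**Figure D4:**
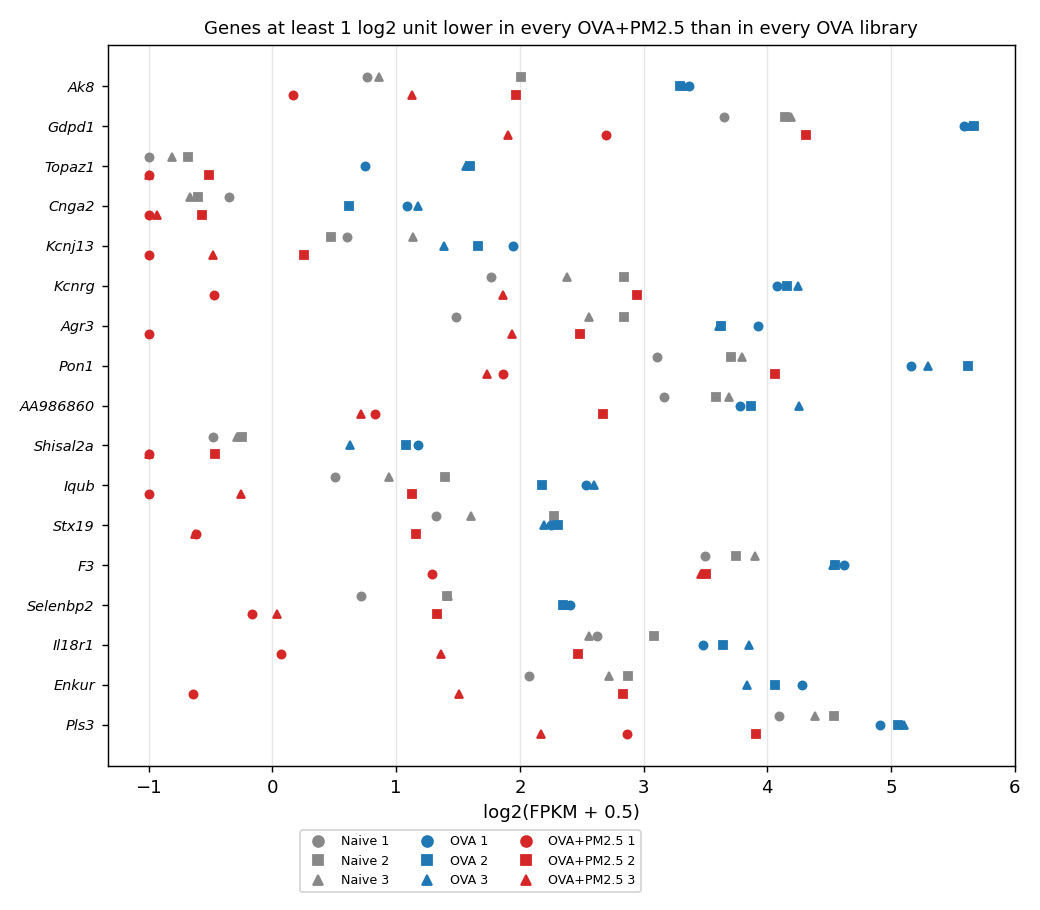
Level of 17 of the 18 genes at least 1 log2 unit lower in every OVA+PM2.5 than in every OVA library, as log2(FPKM + 0.5), with Naive in grey, OVA in blue and OVA+PM2.5 in red. The blue markers form a tight cluster on the right for most genes, the red squares of replicate 2 fall near the grey markers, and the red circles of replicate 1 are often furthest left.

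The 3 steady lower genes were low throughout and near 0 after particles. Topaz1, a germ cell RNA-binding protein, stood at 0, 0.201 and 0 FPKM against 1.18, 2.53 and 2.45 FPKM, with Naive libraries at 0, 0.122 and 0.0682 FPKM. Cnga2, a subunit of the cyclic nucleotide-gated channel first described in olfactory neurons, stood at 0, 0.173 and 0.024 FPKM against 1.62, 1.04 and 1.76 FPKM, and Naive libraries at 0.283, 0.159 and 0.129 FPKM. Shisal2a stood at 0, 0.223 and 0 FPKM against 1.76, 1.61 and 1.04 FPKM, and Naive libraries at 0.218, 0.344 and 0.321 FPKM. All 3 genes passed the floor of 0.5 FPKM through the OVA libraries alone, and the steady rule also asked for high OVA values. That the OVA libraries stood above both other groups therefore follows largely from the choice and is no support. The 9-library fit with a shared spread, on the same values, called them with adjusted p of 0.0329, 0.0328 and 0.0329. With 1 spread per group all 3 calls were lost, at adjusted p of 0.0844, 0.0842 and 0.0827. At so few fragments, values that lay within 1 log2 unit of each other include zeros, and none of the 3 stayed steady with another pseudocount: with 1 in place of 0.5 there were 0 steady lower genes, and with 0.1 there were 5 others.

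As a group, 12 of 14 ciliated cell genes were lower in all 3 libraries and 0 higher, against 20.1 and 6.86 percent of all genes, with medians of −3.41, −0.79 and −1.84 log2 units. Dnah11, an outer arm dynein of the ciliary motor, stood at 0.0331, 0.857 and 0.225 FPKM against 2.81, 1.38 and 1.86 FPKM, and Spag17, a part of the central pair, at 0, 1.12 and 0.325 FPKM against 4.32, 1.97 and 2.83 FPKM. Naive libraries lay at 0.376 to 0.841 FPKM for Dnah11, so that replicate 2 was nearer to Naive than to OVA. Of 14 tight and adherens junction genes, 10 were lower and 0 higher, with medians of −3.99, −0.49 and −2.50 log2 units. Ocln (occludin) stood at 0.128, 3.17 and 0.324 FPKM against 5.73, 7.01 and 5.66 FPKM. Cdh1 (E-cadherin) stood at 4.23, 42.9 and 7.98 FPKM against 82, 70.1 and 74.9 FPKM. Both barrier genes were lowest in replicates 1 and 3, the libraries with least lung epithelial RNA, and that share's part was not tested.

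Among 12 genes of ion and water transport by airway epithelium, 7 (58.3 percent) were lower and 0 higher, and Scnn1a, the alpha subunit of the epithelial sodium channel, stood at 0.361, 14.4 and 1.17 FPKM against 21.8, 31.3 and 42 FPKM. Among 10 club cell genes 5 were lower, and among 12 alveolar type 2 genes 4 were lower (33.3 percent, against 20.1 percent of all genes). Abca3, the lipid pump of surfactant bodies, stood at 2.29, 8.15 and 2.43 FPKM against 8.74, 10.3 and 18.6 FPKM. Of 16 endothelial genes 0 were lower in all 3 libraries, with Epas1, an oxygen-sensitive transcription factor of endothelium, at 50.5, 363 and 83.5 FPKM against 267, 491 and 426 FPKM and replicate 2 inside the OVA range. Of 9 smooth muscle contractile genes 5 were lower and 0 higher, with Actg2, an actin of visceral muscle, at 7.75, 3.99 and 1.37 FPKM against 17.8, 12.5 and 13.8 FPKM. In replicate 2 alone, 6 of the 9 lay below and 3 above every OVA library, against 34 and 23.1 percent of all genes. The summed share of the list did not follow the count, at 0.673, 0.146 and 0.0397 percent of fragments against 0.138 to 0.187 percent in OVA. Des (desmin, a filament protein of all muscle types), chosen after its values were seen, stood at 1146, 143 and 41.6 FPKM against 64.5, 54.1 and 49.8 FPKM, highest in the library richest in skeletal muscle RNA.

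**Figure D5:**
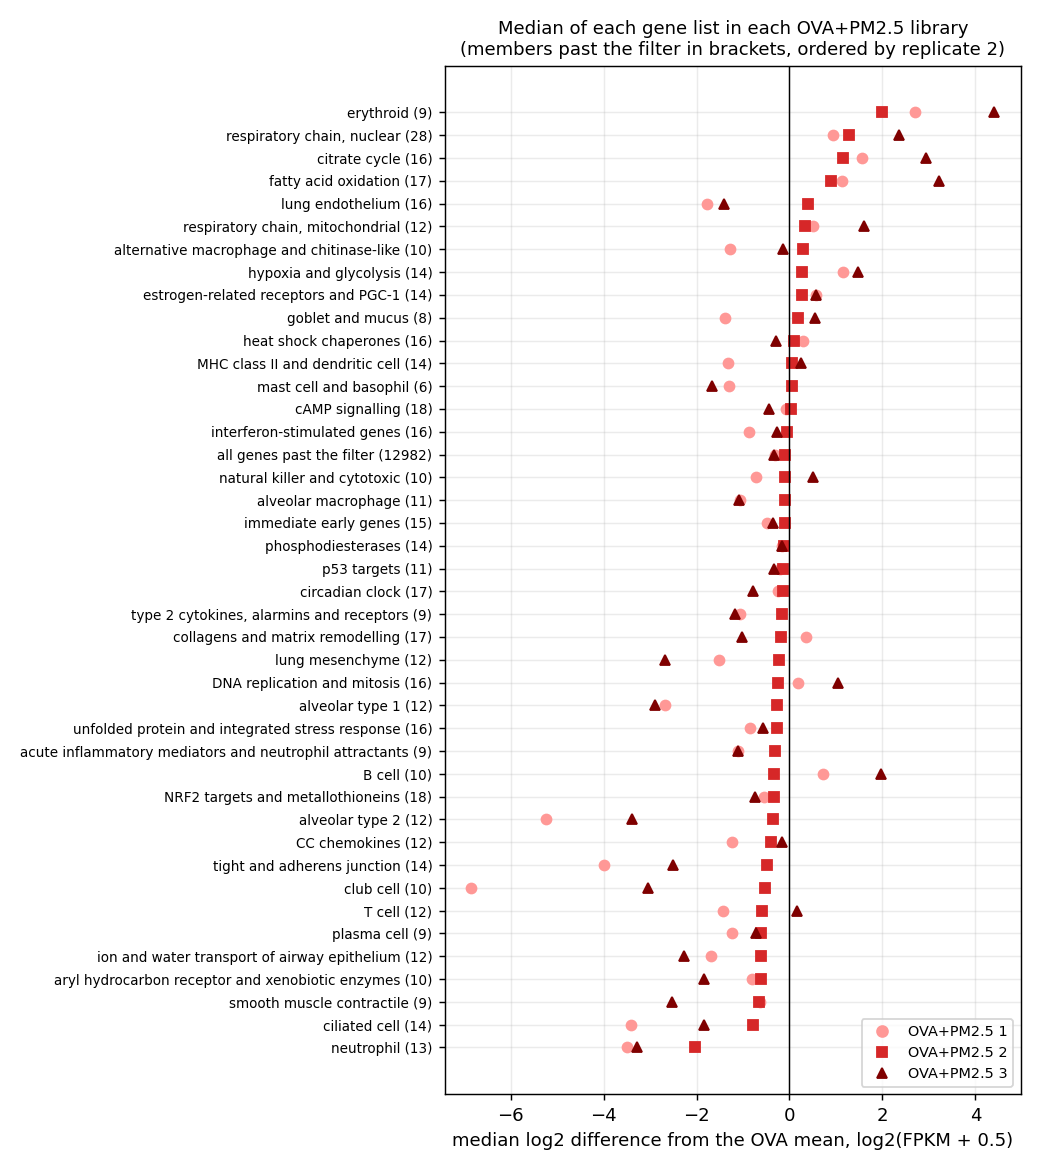
Median log2 difference from the OVA mean over the members of each gene list past the floor, for OVA+PM2.5 replicates 1 (circle), 2 (square) and 3 (triangle), with lists ordered by replicate 2. Erythroid, nuclear respiratory chain, citrate cycle and fatty acid oxidation lists lie to the right in all 3 libraries, and neutrophil, ciliated cell and smooth muscle lists to the left.

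Oxidant and xenobiotic response genes overlapped between the groups or were lower after particles, with 1 exception. Of 18 NRF2 targets and metallothioneins past the floor, 8 (44.4 percent) were lower in all 3 libraries, 1 (5.56 percent) was higher and 9 overlapped, against 20.1 percent of all genes lower and 6.86 percent higher. Gclc, the catalytic subunit of glutathione synthesis, stood at 12.7, 26 and 12.8 FPKM against 37.9, 34.1 and 42.6 FPKM, with Naive libraries at 17.9, 28.1 and 21.6 FPKM. Hmox1 (haem oxygenase 1) stood at 6.67, 11.2 and 7.27 FPKM against 17.3, 14.5 and 20.8 FPKM, with Naive libraries at 13.9, 20 and 15.2 FPKM. In both genes replicate 2 was the highest of the OVA+PM2.5 libraries and below all 3 OVA libraries. Srxn1 (sulfiredoxin), the one higher gene of the list and named after its values were seen, stood at 17.4, 10.9 and 14.5 FPKM against 8.81, 10.8 and 9.33 FPKM, with replicate 2 barely above. Of 10 genes of the aryl hydrocarbon receptor and xenobiotic enzymes, 4 (40 percent) were lower, 0 were higher and 6 overlapped, among the lower ones Cyp2b10, a cytochrome P450, at 0.472, 41.9 and 7.07 FPKM against 64, 94.5 and 138 FPKM. Club and alveolar type 2 cells express several of these enzymes, and the part of the epithelial shares in these values was not tested.

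Neutrophil genes had the lowest medians of the immune lists, at −3.50, −2.02 and −3.29 log2 units. The OVA libraries were themselves divided: Ly6g, a surface marker of mouse neutrophils, stood at 0.544, 14 and 17.8 FPKM in OVA replicates 1, 2 and 3 and at 0, 0.362 and 0.193 FPKM after particles. Mmp9 (gelatinase B) stood at 2.41, 8.42 and 20.5 FPKM in OVA and 1.53, 1.52 and 0.635 FPKM after particles. OVA replicate 1 was near the Naive level, so 11 of 13 neutrophil genes overlapped between the groups. The other 2 (15.4 percent) were lower in all 3 libraries, under the 20.1 percent of all genes. S100a8, chosen after its values were seen, stood at 10.9, 619 and 969 FPKM in OVA, 6.97, 39 and 10.4 FPKM after particles and 10.7, 6.71 and 22.6 FPKM in Naive libraries, and only replicate 2 of the OVA+PM2.5 libraries lay above the Naive range.

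Type 2 genes, the signature of allergic inflammation, did not stand higher. Of 9 past the floor, 3 (33.3 percent) were lower in all 3 libraries and 0 higher, against 20.1 and 6.86 percent of all genes. Ccr8, a chemokine receptor of type 2 helper T cells, stood at 0, 0.0562 and 0.42 FPKM against 2.19, 0.812 and 1.99 FPKM, and Il13ra1, a subunit of the interleukin 13 receptor, at 14.4, 19 and 5.69 FPKM against 25.6, 30.5 and 39.5 FPKM. Il13 itself was at 0, 0.0548 and 0 FPKM after particles and 0.288, 0.106 and 0 FPKM in OVA, too low to compare. Of 8 mucus genes past the floor 1 was lower in all 3 libraries, namely Galnt12, a glycosyltransferase that starts mucin sugars, at 1.03, 1.29 and 1.58 FPKM against 3.41, 2.18 and 2.71 FPKM. Clca1, a goblet cell protein that did not pass the floor and was named after its values were seen, stood at 0, 14.3 and 18.7 FPKM against 0.199, 0.014 and 0.121 FPKM, listed at 0 in replicate 1 and high in replicates 2 and 3. Of 4 eosinophil genes past the floor 1 was higher, Alox15 (a lipoxygenase also made by macrophages), at 6.76, 0.488 and 9.52 FPKM against 0.0734, 0.224 and 0.411 FPKM, with replicate 2 barely above OVA. Plasma cell genes were lower for 3 of 9, with Sdc1 (syndecan 1, also an epithelial protein) at 9.57, 30.6 and 6.61 FPKM against 41.8, 42.4 and 48.8 FPKM, and B and natural killer cell genes for 0 of 10 each.

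Interferon, heat shock and stress lists held few genes that separated the groups, and the shares lower in all 3 libraries were at or under the 20.1 percent of all genes. The share of all genes higher in all 3 libraries was 6.86 percent. Of 16 interferon-stimulated genes 1 was higher and 1 lower in all 3 libraries: Rsad2 (viperin) stood at 5.29, 2.11 and 4.32 FPKM against 0.422, 0.628 and 0.876 FPKM. Of 16 heat shock chaperones 2 were higher and 1 lower, with Hspb8, a small chaperone abundant in muscle, at 93.2, 44.2 and 28 FPKM against 11.4, 14.1 and 18.1 FPKM. Hspb8 was highest in replicate 1 and the groups did not overlap. Of 16 genes of the unfolded protein and integrated stress response 3 (18.8 percent) were lower, with Atf4, its central transcription factor, at 22, 33.3 and 25.3 FPKM against 46.1, 49.6 and 42.9 FPKM, and of 15 immediate early genes 3 (20 percent) were lower, close to the share of all genes. Of 17 collagen and matrix genes 2 (11.8 percent) were lower, among them Tnc (tenascin C, a matrix protein of injured tissue), at 0.146, 0.358 and 0.388 FPKM against 1.21, 0.629 and 1.28 FPKM.

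The remaining immune lists mostly overlapped between the groups. Mast cell and basophil genes differed in direction: Cma1, a chymase of connective tissue mast cells, stood at 2.24, 0.946 and 0.532 FPKM against 0.128, 0.118 and 0 FPKM, with Naive libraries at 2.84, 2.08 and 3.66 FPKM, and Hdc, which makes histamine, at 0.562, 12.3 and 2.69 FPKM against 16.8, 14.8 and 13.7 FPKM. Cma1 was higher and Hdc lower in all 3 libraries. Of 12 T cell genes 1 (8.33 percent) was lower in all 3, of 14 genes of MHC class II and dendritic cells 1 (7.14 percent), and of 12 CC chemokine genes 1 lower and 1 higher (8.33 percent each). Of all genes, 20.1 percent were lower and 6.86 percent higher in all 3 libraries, and the counts here and below are to be read against those shares. Clec9a, a receptor of cross-presenting dendritic cells, stood at 0.731, 4.7 and 0.902 FPKM against 4.79, 6.11 and 5.3 FPKM. Of 9 acute inflammatory mediators 1 was lower, namely Ptgs2, the inducible cyclooxygenase, at 0.564, 2.4 and 0.496 FPKM against 3.52, 4.28 and 11.3 FPKM. Of 11 alveolar macrophage genes 1 was higher and 1 lower, with Plet1 at 0.147, 3.89 and 2.61 FPKM against 7.04, 8.04 and 20.9 FPKM. Among 10 genes of alternatively activated macrophages, Arg1 (arginase 1) stood at 8.6, 0.73 and 2.32 FPKM against 0.821, 0.461 and 0.551 FPKM, high in replicate 1 and within the OVA range in replicate 2.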

How the data were processed

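Poly(A) RNA of mouse lung tissue was extracted with Trizol and made into 9 NEBNext Ultra libraries, per the labels' protocols. The deposited table holds FPKM per gene, computed by the authors on GRCm39, per the submitters' processing notes, with aligner and counter not given in the sources used here. Of its 21884 genes, 13084 had symbols in the table, 8725 took theirs from GENCODE by identifier and 75 stayed unnamed. Steps between FPKM values gave whole fragments for 100.00 percent of 17298 genes (tolerance 0.001), used for depth, list shares and an added voom fit. Depth was 12142765 to 15748051 fragments, and the shares cover no biological error.

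FPKM of at least 0.5 in at least 3 libraries kept 12982 genes. The model was limma (3.58.1, R 4.3.3) with a variance trend on log2(FPKM + 0.5), the 3 OVA+PM2.5 against the 3 OVA libraries, adjusted by Benjamini-Hochberg at 0.05. An earlier analysis of these data shared 1 spread over all 9 libraries, and that fit is given as an alternative because the groups' spreads were unequal. Replicate numbers did not pair the libraries. Tables and figures used Python 3.11.15, pandas 2.3.3, numpy 2.4.6 and matplotlib 3.10.9. The scripts were tested on simulated data.

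The rule named Esrrg, Pde3b and up to 12 steady genes per direction. From 50 gene lists (692 of 700 entries matched) it named every steady member and, for other tissues, the 3 highest. It also named the 2 members of smallest p of each list with at least 3 members past the floor. A few genes that it selected are not reported here. The comparison, lists and rules were chosen with earlier results of these data known. Overlapping and antisense genes are uncertain because strand is not stated.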

Additional observations from a re-analysis of the deposited data

How the results depend on the processing

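Calls by limma on the 6 libraries numbered 0 with pseudocounts of 0.1 and 1, a filter at FPKM 1 or none, the 3 other scalings, no variance trend, library weights, and voom on recovered fragments (2135 unadjusted). All 9 libraries gave 28, and 1 weight per group 7, with 0 lower. Leaving out 1 library gave 0 to 1692. The replicate block gave 0 (1975 unadjusted), and same-numbered libraries deviated together at −0.14, 0.169 and −0.066, so the numbers share no pairing. Replicate 2 alone against OVA, added after seeing the data, gave 111. Steady higher genes numbered 26 at a common sum, 14 with median-ratio scaling and 23 with quantile normalization, of which 13, 10 and 13 were among the 17, so that median-ratio scaling lost 7. They numbered 19 and 14 with pseudocounts of 0.1 and 1 (14 and 13 of the 17), 61 and 3 with gaps of 0.58 and 1.5, 6 and 36 with spreads of 0.58 and 1.5, 377 in replicate 2 alone and 18 to 124 with 1 library left out. Steady lower genes numbered 5 and 0 with pseudocounts of 0.1 and 1 (0 of the 3 in both), 46 and 0 with those gaps, 5 with a spread of 1.5, 30 in replicate 2 alone and 7 to 737 with 1 library left out. Genes at least 1 log2 unit apart numbered 108 to 259 higher and 19 to 1038 lower with 1 library left out, and the lower ones 37 and 7 with pseudocounts of 0.1 and 1 and 7 at a common sum. Of 2430 log2 differences of named genes under the alternatives, 16 turned direction. Leaving out 1 library, Pde3b ran from −0.122 to 1.58, Myl7 from −0.132 to 6.05 and Cd8b1 from −0.824 to 0.709. Cd8b1 was 0.021 at a common sum, 0.27 with library weights, 0.071 with median-ratio scaling and 0.199 with quantile normalization. In replicate 2 alone, Pde3b was −0.738, Cd1d1 −0.125, Cd8b1 0.094, Krt5 0, Tmem100 0.05, Ear1 0.022, Pax5 −0.284 and Ccnb1 −0.326. The cause was not tested. Scalings moved the median of all genes from −0.23 to between −0.05 and −0.01. Depth limits genes under about 1 FPKM, where zeros count as even.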

Other observations

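Clock genes stood lower in part. Of 17, 6 (35.3 percent) were lower in all 3 OVA+PM2.5 libraries and 0 higher, against 20.1 and 6.86 percent of all genes. The list as a whole had medians of −0.25, −0.15 and −0.79 log2 units, against −0.32, −0.09 and −0.32 for all genes. It thus lay apart from all genes in replicate 3 only. Per1, a light- and glucocorticoid-responsive repressor of the clock, stood at 2.13, 2.16 and 1.92 FPKM after particles, 4.35, 3.8 and 4.9 FPKM in OVA and 6.27, 6.03 and 7.02 FPKM in Naive libraries. Its 3 groups did not overlap, and the part of the other tissues in its level was not tested. Cry1, another repressor, stood at 1.7, 3.16 and 1.94 FPKM against 5.18, 5.95 and 5.88 FPKM, with Naive libraries at 7.04, 5.16 and 6.41 FPKM. The differences were −0.91 ± 0.21 and −1.19 ± 0.26 log2 units, with adjusted p of 0.239 and 0.239 in limma on 6 libraries. Per2, named after its values were seen, stood at 1.37, 4.68 and 2.2 FPKM against 9.13, 5.77 and 9.32 FPKM. Bhlhe40, Nr1d1 and the activators Clock and Arntl overlapped between the groups, with Arntl at 1.02, 0.784 and 0.632 FPKM against 0.657, 0.933 and 0.79 FPKM. The hour of lung collection is not given in the labels, and its part was not tested.

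With the gap between groups set at 0.58 in place of 1 log2 unit, the steady genes numbered 61 higher and 46 lower, and the genes named from here on were chosen after their values were seen. The added higher genes again included mitochondrial import and inner membrane proteins: Timm23 stood at 13.9, 11.1 and 21.2 FPKM against 4.67, 5.12 and 5.54 FPKM and Immt at 8.36, 6.44 and 11.9 FPKM against 3.3, 3.63 and 4 FPKM. Egln1, the main oxygen-sensing prolyl hydroxylase, stood at 71.9, 62.6 and 61.3 FPKM against 24.5, 34.7 and 29.9 FPKM, with Naive libraries at 40.1, 37 and 36.4 FPKM. Ninj1, a membrane protein that ruptures dying cells, stood at 13.2, 13.2 and 11.6 FPKM against 4.92, 5.8 and 6.43 FPKM. On the lower side, Net1, an exchange factor for RhoA, stood at 9.83, 15.9 and 11.4 FPKM against 35.7, 31.2 and 28.2 FPKM, with Naive libraries at 16.9, 21.7 and 17.1 FPKM. Akr1b8, an aldose reductase relative of airway epithelium, stood at 10.2, 11.6 and 8.91 FPKM against 23, 20.3 and 20.6 FPKM, with Naive libraries at 8.44, 13.8 and 10.1 FPKM. Peli1, a ubiquitin ligase of Toll-like receptor signalling, stood at 6.32, 6.3 and 3.86 FPKM against 11.6, 10.8 and 10.5 FPKM. Kcnmb1, the smooth muscle subunit of the large-conductance potassium channel, stood at 0.937, 0.74 and 0.491 FPKM against 2.9, 1.96 and 2.89 FPKM.

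Proliferation genes followed single libraries. Of 16 DNA replication and mitosis genes 0 were higher or lower in all 3 libraries, against 6.86 percent of all genes higher and 20.1 percent lower. Their medians were 0.19, −0.25 and 1.04 log2 units. Mcm5, a subunit of the replicative helicase, stood at 1.21, 1.12 and 3 FPKM against 0.931, 0.814 and 1.2 FPKM, with replicate 3 apart. B cell genes had medians of 0.73, −0.32 and 1.96 log2 units, and Pax5, the factor of B cell identity, stood at 7.18, 0.855 and 6.16 FPKM against 1.37, 1.61 and 0.641 FPKM, high in replicates 1 and 3 and within the OVA range in replicate 2.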
